A study of Homo sapiens with 12 samples.

Results

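The 2-oxoglutarate-dependent dioxygenases examined here are 48 of the 63187 genes listed for the human breast cancer line MDA-MB-231, an established culture from an adenocarcinoma. They were taken by symbol and gene type: protein-coding genes of the KDM2 to KDM7, ALKBH, EGLN, P4HA, PLOD and JMJD series, with KDM5D left out, plus TET1, TET2, TET3, FTO, HIF1AN, RIOX1, RIOX2, PHF8 and ASPH. By role they comprised 6 collagen hydroxylases, 4 hydroxylases of the hypoxia-inducible factor (HIF), 1 aspartyl hydroxylase, 18 JmjC-domain lysine demethylases, 7 other JmjC proteins, 3 TET DNA dioxygenases and 9 AlkB-family members. RNA was sequenced from cells kept for 36 h in 4 media with 3% serum after growth in 10% serum, with 3 libraries, lettered A to C, per medium. Glucose at 25 mM and glutamine at 4 mM were both present in full medium. Glucose-only medium omitted the glutamine, glutamine-only medium omitted the glucose, and deficient medium omitted both.

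Enzymes of this family bind iron, split molecular oxygen and decarboxylate 2-oxoglutarate to succinate while they hydroxylate a protein or oxidise a methyl group on histone, DNA or RNA. 2-Oxoglutarate is an intermediate of the tricarboxylic acid cycle that cells can make from glucose and, through glutamate, from glutamine. Several members also belong to the textbook set of genes switched on by HIF, whose own stability is set by the EGLN enzymes.

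Each deposited value is a read count divided by 1 size factor per library, called a normalized count below. Libraries held 875033 to 1473587 reads, and 1 read corresponded to a normalized count of 0.661 to 1.30. Differences are on the scale of log2(normalized count + 1) with the standard error (SE) of the limma fit, and a gene was called when its Benjamini-Hochberg adjusted p, two-sided and taken over 9270 tested genes, was under 0.05. The test covered genes that reached a normalized count of 10 in at least 3 libraries, which 36 of the 48 members did. Protein-coding genes took 55.4 ± 3.94% of reads in full medium, 51.1 ± 3.34% in glutamine-only, 44.4 ± 2.51% in glucose-only and 47.3 ± 4.34% in deficient medium (mean ± SD, n = 3). Scaling libraries to equal totals in place of the deposited size factors moved the median of all genes by -0.39 in deficient against full medium, by -0.21 in glucose-only and by -0.12 in glutamine-only against full, by 0.175 in glucose-only and 0.271 in glutamine-only against deficient. It moved that median by -0.10 in glucose-only against glutamine-only medium. Epithelial keratins were present (summed normalized count of 6 epithelial genes 549.9 to 709.7) while CDH1 was at 0 to 0.917, and the mesenchymal genes VIM, CD44 and ZEB1, known for this line, summed to 1244 to 1964. All 6 fibroblast, all 6 blood and all 3 adipocyte markers stayed under 10 in every library, and 2 of 4 endothelial markers did. Separate cultures behind libraries A to C are not stated in the labels, so the p-values measure the spread between libraries, which may be technical.

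Of the 5 tested collagen hydroxylases 3 divided by glutamine. P4HA1, P4HA2 and PLOD1 were higher in all 6 libraries with glutamine than in all 6 without it, whether or not glucose was present, an order that 3.67% of all tested genes showed. P4HA1 and P4HA2 encode catalytic subunits of the prolyl 4-hydroxylases that stabilise the collagen triple helix, and PLOD1, PLOD2 and PLOD3 encode lysyl hydroxylases that prepare collagen for cross-linking and glycosylation. Of the 5 tested collagen hydroxylases 4 were lower in glucose-only than in full medium and none higher, where 13.5% of all tested genes were lower and 9.44% higher, with a median log2 difference of -1.23 against -0.03 over all tested genes. In bulk RNA, fewer cells of a kind and less RNA per cell cannot be told apart. The promoters of P4HA1, PLOD1, PLOD2 and the demethylase KDM3A are printed here because all 4 genes were lower in glucose-only than in full medium, all 4 belong to the textbook set of HIF-inducible genes, and each window holds the core letters of the hypoxia response element.

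The windows are the 250 bases before a RefSeq transcript start of each gene, 5′ to 3′ along the gene, on GRCh38.p14. P4HA1 is at chr10:73096867-73097116 on the minus strand, PLOD1 at chr1:11934467-11934716 on the plus strand, PLOD2 at chr3:146161185-146161434 on the minus strand and KDM3A at chr2:86441121-86441370 on the plus strand, the first of 2 windows listed for that gene. Capitals mark ACGTG or GCGTG on either strand, so that CACGT and CACGC are the same letters read from the other strand and the 2 readings overlap where CACGTG occurs.
P4HA1: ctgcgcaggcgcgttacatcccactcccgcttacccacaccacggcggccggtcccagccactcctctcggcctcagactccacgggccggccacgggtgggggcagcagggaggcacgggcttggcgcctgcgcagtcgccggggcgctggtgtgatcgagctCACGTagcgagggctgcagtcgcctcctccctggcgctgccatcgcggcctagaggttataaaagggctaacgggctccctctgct
PLOD1: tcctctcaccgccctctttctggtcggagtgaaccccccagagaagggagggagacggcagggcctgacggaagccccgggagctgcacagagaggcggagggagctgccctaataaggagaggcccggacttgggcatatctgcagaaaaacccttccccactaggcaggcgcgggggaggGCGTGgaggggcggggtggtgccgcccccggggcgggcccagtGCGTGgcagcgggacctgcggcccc
PLOD2: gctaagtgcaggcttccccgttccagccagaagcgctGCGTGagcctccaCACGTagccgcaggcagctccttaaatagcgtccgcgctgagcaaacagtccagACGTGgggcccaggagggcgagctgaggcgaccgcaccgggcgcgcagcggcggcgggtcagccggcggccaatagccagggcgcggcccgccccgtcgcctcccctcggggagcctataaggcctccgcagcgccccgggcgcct
KDM3A: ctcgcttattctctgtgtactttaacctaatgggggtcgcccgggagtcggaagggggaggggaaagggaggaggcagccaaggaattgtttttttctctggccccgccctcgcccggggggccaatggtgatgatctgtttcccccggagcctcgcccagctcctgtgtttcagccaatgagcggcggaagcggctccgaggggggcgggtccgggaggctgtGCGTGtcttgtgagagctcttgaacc
P4HA1 had 1 match, PLOD1 2, PLOD2 3 and KDM3A 1. These letters are common: 43.2% of all 35116 RefSeq promoter windows of this length held a match, and 55.2% of the 58 windows listed for 42 of the 48 members. RIOX1, RIOX2, P4HA3, KDM4E, JMJD6 and ASPH had no entry. Of the 12 windows of members lower in glucose-only than in full medium 66.7% held a match. The 2 windows of KDM3A overlap and hold the same match, which is counted in each. The windows of P4HA2 and EGLN3, genes that were also lower in glucose-only than in full medium, held none. A match describes letters in a window and is not a measured binding site.

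P4HA1 (chr10:73007217-73096866) had normalized counts of 143, 121 and 127 in full medium libraries A, B and C and 151, 159.9 and 135 in glutamine-only medium. Without glutamine it had 36.1, 34.6 and 29.4 in glucose-only and 46.9, 41.1 and 48.9 in deficient medium. The lowest library with glutamine, at 121, stood above the highest without it, at 48.9. Glucose-only against glutamine-only medium differed by -2.12 ± 0.13 (adjusted p = 6.09e-13), a 4.36-fold lower level on this scale, and glucose-only against full medium differed by -1.94 ± 0.13 (adjusted p = 4.57e-12). Deficient against full medium differed by -1.49 ± 0.13 (adjusted p = 2.03e-10). Removing glucose alone left no called difference, at 0.19 (95% interval -0.08 to 0.46, adjusted p = 0.344). P4HA1 was also lower in glucose-only than in deficient medium with a log2 difference of -0.44 ± 0.13, a call that was lost with equal library totals (-0.26, 0.214), in a fit of those media alone (-0.44, 0.0621), with edgeR (-0.44, 0.0547), with DESeq2 (-0.44, 0.161) and without glucose-only library C (-0.36, 0.05), each given as log2 difference and adjusted p.

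P4HA2 (chr5:132190147-132227853) showed the same division at a lower level. Its normalized counts were 41.7, 36.7 and 40.4 in full, 37.9, 49.1 and 27.96 in glutamine-only, 12.05, 17.8 and 19.99 in glucose-only and 13.02, 16.9 and 12.4 in deficient medium. The 6 libraries with glutamine lay between 27.96 and 49.1 and the 6 without between 12.05 and 19.99. The difference was -1.43 ± 0.24 (adjusted p = 1.27e-05) in deficient against full medium and -1.23 ± 0.24 (adjusted p = 0.000353) in glucose-only against full. PLOD1 (chr1:11934717-11975537) had 116, 113 and 104 in full, 109, 105 and 111 in glutamine-only, 45.8, 41.9 and 58.8 in glucose-only and 37.7, 56.8 and 39.6 in deficient medium. The libraries with glutamine, at 104 to 116, did not overlap those without, at 37.7 to 58.8. PLOD1 differed by -1.15 ± 0.15 (adjusted p = 2.53e-06) in glucose-only against glutamine-only medium. Deficient against full medium differed by -1.31 ± 0.15 (adjusted p = 2.75e-08) for the same gene.

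PLOD2 (chr3:146069440-146161184) took another course and was lowest in glucose-only medium. Its normalized counts were 155, 165 and 145 in full and 138, 136 and 163 in deficient medium, which overlapped, 105, 124 and 103 in glutamine-only and 65.04, 63.9 and 44.7 in glucose-only medium. Glucose-only medium lay below full with a log2 difference of -1.42 ± 0.13 (adjusted p = 3.21e-09) and below deficient with a log2 difference of -1.33 ± 0.13 (adjusted p = 4.15e-09), and no library of it reached the lowest of any other medium. Glutamine-only medium lay below full with a log2 difference of -0.48 ± 0.13 (adjusted p = 0.00868). Deficient and full medium were not called different with the deposited scaling, at -0.09 (95% interval -0.36 to 0.18, adjusted p = 0.595). This depended on scaling. With equal library totals 4 of the 5 tested collagen hydroxylases, PLOD2 among them, were called lower in deficient than in full medium. Their median was then -1.71 against -0.37 over all tested genes. The smaller difference of glutamine-only from deficient medium, -0.39 ± 0.13, was lost without the filter (-0.39, 0.0615), with equal library totals (-0.11, 0.609), with quantile normalization (-0.20, 0.262), with DESeq2 (-0.39, 0.0664), without deficient library C (-0.31, 0.1), without glutamine-only library A (-0.36, 0.0699) and without glutamine-only library C (-0.35, 0.0747).

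PLOD3, the lysyl hydroxylase that also glycosylates collagen, did not share the glutamine pattern. Its normalized counts were 33.1, 42.3 and 26.6 in full, 40.6, 49.1 and 48.5 in glutamine-only, 38.5, 32.5 and 34.1 in glucose-only and 45.6, 59.2 and 42.7 in deficient medium, and only the deficient libraries all exceeded all full ones. The difference of deficient from full medium was 0.53 ± 0.18, and it was lost with equal library totals (0.14, 0.584), with DESeq2 (0.52, 0.0792), without deficient library B (0.39, 0.109) and without full library C (0.37, 0.123). Per kilobase of exon in GENCODE release 29, the level in full medium was 42.1 normalized counts for P4HA1, 20.8 for PLOD1, 20.3 for PLOD2, 5.99 for PLOD3 and 4.65 for P4HA2. P4HA3 had at most 1.55 in any library and was not tested.

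**Figure D1:**
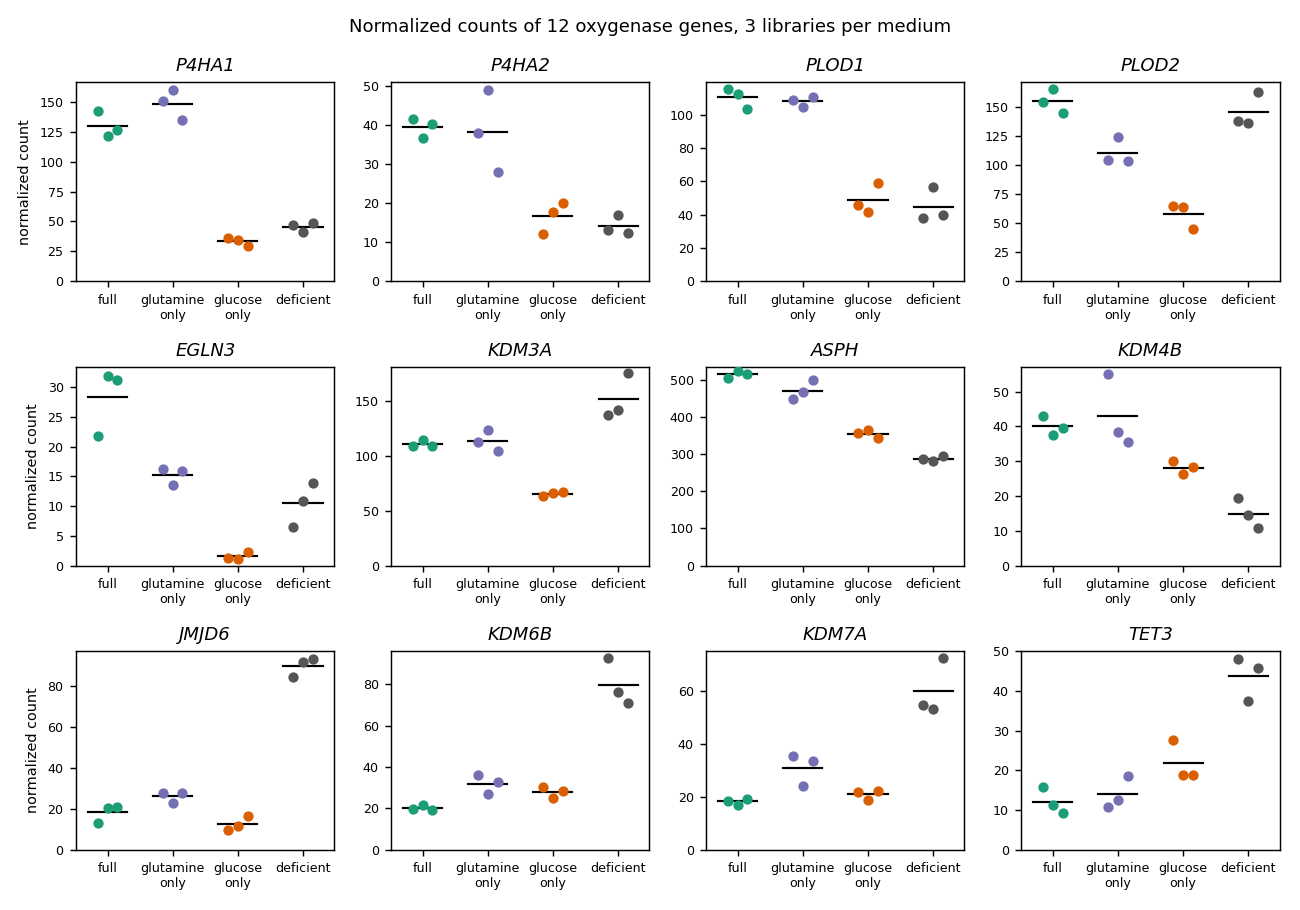
Normalized counts (vertical axis, linear, from 0) of 12 oxygenase genes in the 3 libraries of each medium, with points for libraries and bars for means. P4HA1, P4HA2, PLOD1, ASPH and KDM4B separate the 6 libraries with glutamine from the 6 without, PLOD2, EGLN3 and KDM3A are lowest in glucose-only medium, and JMJD6, KDM6B, KDM7A and TET3 are highest in deficient medium.

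Among the HIF hydroxylases EGLN3 was the member that moved most. EGLN1, EGLN2 and EGLN3 encode the prolyl hydroxylases that mark HIF alpha subunits for VHL, and HIF1AN encodes the asparaginyl hydroxylase that blocks their coactivator binding. EGLN3 (chr14:33924227-33951074) had normalized counts of 21.8, 31.96 and 31.2 in full, 16.2, 13.5 and 15.8 in glutamine-only, 6.51, 10.9 and 13.98 in deficient and 1.205, 1.05 and 2.35 in glucose-only medium. All libraries of full medium lay above all of the other media, and all of glucose-only medium below. These rest on few reads: 101 summed over the full libraries, 49 over glutamine-only, 32 over deficient and 4 over glucose-only. The ratio of full to glucose-only medium after size factors was 18.1 (95% exact interval 6.87 to 67.9) and that of deficient to glucose-only was 7.31 (95% exact interval 2.59 to 28.4), intervals that cover counting error only. The fitted difference of glucose-only from full medium was -3.55 ± 0.35 (adjusted p = 8e-09) with a pseudocount of 1 and -1.92 with one of 8, both called. Against glutamine-only medium it was -2.71 ± 0.35 (adjusted p = 1.94e-06) and -1.28 with a pseudocount of 8. Deficient lay below full medium with a log2 difference of -1.39 ± 0.35 (adjusted p = 0.00152), while glutamine-only against full was not called, at -0.84 (95% interval -1.56 to -0.12, adjusted p = 0.0849).

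EGLN1 had 12.6, 9.40 and 14.7 in full, 7.22, 6.74 and 10.3 in glutamine-only, 7.23, 5.24 and 5.88 in glucose-only and 7.81, 6.04 and 6.21 in deficient medium. Its full libraries were the higher ones on average. No comparison was called with the deposited scaling, with glucose-only against full at -0.88 (95% interval -1.61 to -0.15, adjusted p = 0.0733). EGLN1 passed the filter for testing only through full libraries A and C and glutamine-only library C. EGLN2 stayed under the limit for testing, with 5.29, 6.58 and 4.59 in full, 5.41, 5.78 and 6.52 in glutamine-only, 8.43, 9.43 and 9.41 in glucose-only and 10.4, 9.66 and 6.99 in deficient medium. Its libraries without glutamine all lay above those with it, from 6.99 against at most 6.58, on few reads and with 30.6% of its exonic bases shared with the readthrough gene RAB4B-EGLN2. HIF1AN had 54.2, 56.4 and 45.9 in full, 54.1, 66.5 and 63.4 in glutamine-only, 66.2, 60.8 and 74.1 in glucose-only and 40.4, 49.5 and 38.05 in deficient medium. It was higher than in deficient medium by 0.65 ± 0.15 (adjusted p = 0.00113) in glucose-only and by 0.52 ± 0.15 (adjusted p = 0.00776) in glutamine-only. No medium was called different from full for HIF1AN with the deposited scaling. With equal library totals all 3 tested HIF hydroxylases were called lower in deficient than in full medium (median -1.13 against -0.37 over all tested genes). In glucose-only against full medium 2 of the 3 were called lower with that scaling.

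ASPH, which hydroxylates aspartate and asparagine in the EGF-like domains of secreted and membrane proteins, had the highest normalized counts of the 48 members. Its values were 507, 525 and 517 in full, 449, 467 and 499.6 in glutamine-only, 358, 366 and 343 in glucose-only and 286, 281 and 294 in deficient medium. The 4 media did not overlap with one another and ranked in that order. Deficient lay below full medium with a log2 difference of -0.84 ± 0.09 (adjusted p = 5.98e-09), glucose-only below full with a log2 difference of -0.54 ± 0.09 (adjusted p = 4.93e-05) and glucose-only below glutamine-only with a log2 difference of -0.41 ± 0.09 (adjusted p = 0.00206). Glutamine-only against full medium was not called, at -0.13 (95% interval -0.31 to 0.05, adjusted p = 0.327).

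Of the 14 tested JmjC lysine demethylases 7 were higher and 1 lower in deficient than in full medium with the deposited scaling. Of all tested genes 26.3% were higher and 25.5% lower there. Their median difference there was 0.32 against 0.01 over all tested genes. This split did not hold under the other scaling: with equal library totals 4 were higher and 6 lower, with a median of -0.08 against -0.37 over all tested genes. Of all genes called there 23.6% were higher with equal library totals, against 50.8% with the deposited scaling. KDM3A, KDM6A and PHF8 were the 3 demethylases that lost their calls as higher. These enzymes remove methyl groups from histone lysines: KDM2A, KDM2B, KDM7A and PHF8 act on lower methyl states of H3K36, H3K9, H3K27 or H4K20, KDM3A on H3K9, KDM4A and KDM4B on H3K9 and H3K36, KDM5 enzymes on H3K4, and KDM6A and KDM6B on H3K27. JMJD1C is the KDM3-related member, and its activity on histones is debated.

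KDM6B (chr17:7834217-7854796) had 92.4, 76.1 and 70.7 in deficient medium against 19.8, 21.6 and 19.3 in full, 36.1, 26.97 and 32.6 in glutamine-only and 30.1, 25.1 and 28.2 in glucose-only. The lowest deficient library, at 70.7, lay above the highest of the other 9, at 36.1. The difference from full medium was 1.92 ± 0.18 (adjusted p = 7.45e-10), 3.78-fold. KDM7A (chr7:140084746-140176983) had 54.7, 53.1 and 72.2 in deficient, 35.2, 24.1 and 33.6 in glutamine-only, 21.7, 18.9 and 22.3 in glucose-only and 18.5, 16.9 and 19.3 in full medium. Both media without glucose stood above both with it, and deficient lay above full by 1.65 ± 0.21 (adjusted p = 1.04e-07). Glutamine-only medium was higher than full by 0.72 ± 0.21 for KDM7A, lost with equal library totals (0.60, 0.0563), with DESeq2 (0.78, 0.0518), without glutamine-only library A (0.62, 0.067) and without glutamine-only library C (0.65, 0.0537). The same comparison gave 0.62 ± 0.18 for KDM6B, lost with equal library totals (0.51, 0.0763), with DESeq2 (0.67, 0.0803) and without glutamine-only library A (0.53, 0.0737). JMJD1C (chr10:63167225-63521890) had 350.1, 295 and 353 in deficient medium and 141 to 195 in the other 9 libraries. Its difference between deficient and full medium was 1.10 ± 0.11 (adjusted p = 2.03e-09), and 0.70 with equal library totals, still called.

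KDM2A had 155, 141 and 134 in deficient medium and 76.1 to 106 in the other 9 libraries. It was higher in deficient than in full medium by 0.78 ± 0.12 (adjusted p = 3.58e-06), or 0.39 with equal library totals, still called. KDM6A had 33.8, 44.7 and 36.5 in deficient, 28.4, 15.98 and 25.7 in full, 23.5, 31.8 and 27.03 in glutamine-only and 18.1, 17.8 and 19.99 in glucose-only medium. All deficient libraries lay above the rest. Its difference from full medium, 0.72 ± 0.23, was lost with equal library totals (0.33, 0.261), without deficient library B (0.61, 0.0512) and without full library B (0.48, 0.0943). PHF8 was higher in deficient than full medium by 0.91 ± 0.27, lost with equal library totals (0.52, 0.112).

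KDM3A (chr2:86437044-86492716) resembled PLOD2 in being lowest in glucose-only medium. Its normalized counts were 63.8, 66.01 and 67.02 there, 109, 115 and 109 in full, 113, 124 and 104 in glutamine-only and 138, 142 and 176 in deficient medium. The glucose-only libraries lay between 63.8 and 67.0, and no other library was under 104. KDM3A was lower in glucose-only than in full medium with a log2 difference of -0.75 ± 0.12 (adjusted p = 2.47e-05), than in glutamine-only with a log2 difference of -0.78 ± 0.12 (adjusted p = 2.13e-05) and than in deficient with a log2 difference of -1.19 ± 0.12 (adjusted p = 3.37e-09). Its excess in deficient over full medium, 0.44 ± 0.12, was lost with equal library totals (0.05, 0.818). The deficit of glutamine-only against deficient medium, -0.41 ± 0.12, was lost with equal library totals (-0.13, 0.516), with quantile normalization (-0.22, 0.159) and without deficient library C (-0.30, 0.0636).

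KDM4B (chr19:4969113-5153598) was the demethylase called lower in deficient medium with the deposited scaling and the only tested one whose libraries with glutamine all exceeded those without. It had 42.98, 37.6 and 39.4 in full, 55.02, 38.5 and 35.4 in glutamine-only, 30.1, 26.2 and 28.2 in glucose-only and 19.5, 14.5 and 10.9 in deficient medium. Deficient lay below full with a log2 difference of -1.40 ± 0.22 (adjusted p = 4.66e-06) and below glutamine-only, with KDM4B higher in the latter by 1.47 ± 0.22 (adjusted p = 4.03e-06). Glucose-only against full medium was not called, at -0.49 (95% interval -0.94 to -0.04, adjusted p = 0.106). KDM4A, which shares 40.2% of its exonic bases with another gene on its strand, was higher in glutamine-only than in deficient medium by 1.12 ± 0.30 (adjusted p = 0.00341).

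With the deposited scaling KDM5A, KDM5B and KDM5C moved little and had 1 call. Their normalized counts ranged over the 12 libraries from 89.5 to 117, 72.9 to 107 and 44.6 to 67.7. The 1 call among them was KDM5B in glucose-only against full medium, -0.37 ± 0.13, which was lost without the filter (-0.37, 0.16), with quantile normalization (-0.24, 0.187), with DESeq2 (-0.35, 0.212), without glucose-only library A (-0.32, 0.118), without glucose-only library C (-0.32, 0.125), without full library A (-0.34, 0.114) and without full library C (-0.33, 0.119). KDM5A in deficient against full medium was at -0.13 (95% interval -0.38 to 0.13, adjusted p = 0.409). With equal library totals KDM5 genes were among the 6 of 14 tested demethylases called lower in deficient than in full medium. KDM2B was lower in glutamine-only than in full medium with a log2 difference of -0.64 ± 0.21, lost without the filter (-0.64, 0.0754), with DESeq2 (-0.68, 0.0978), without glutamine-only library A (-0.64, 0.0631), without glutamine-only library B (-0.56, 0.105), without full library A (-0.50, 0.164) and without full library C (-0.66, 0.06). It was the 1 member of the 36 whose libraries with glucose, at 27.3 to 40.3, all exceeded those without, at 18.3 to 24.1. That is 2.78% of tested members against 3.35% of all tested genes.

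JMJD6 (chr17:76712836-76726606), a lysyl hydroxylase of splicing factors, showed the highest rise of any member in deficient medium. It had normalized counts of 84.6, 91.8 and 93.2 in deficient, 27.96, 23.1 and 27.96 in glutamine-only, 13.2, 20.7 and 21.1 in full and 9.64, 11.5 and 16.5 in glucose-only medium. The lowest deficient library, at 84.6, lay above the highest of the other 9, at 27.96. The difference of deficient from full medium was 2.26 ± 0.22 (adjusted p = 1.72e-09), 4.79-fold. JMJD6 was lower in glucose-only than in glutamine-only medium with a log2 difference of -1.04 ± 0.22 (adjusted p = 0.00169) and lower than in deficient medium with a log2 difference of -2.78 ± 0.22 (adjusted p = 5.54e-11). Of the other JmjC proteins, JMJD8 was higher in glutamine-only than in full medium by 0.97 ± 0.33 on counts of 17.1, 15.4 and 18.6 and 10.6, 9.40 and 5.504. JMJD8 shares 37.4% of its exonic bases with STUB1 on the opposite strand, and its call was lost without the filter (0.97, 0.0547), with equal library totals (0.87, 0.0627), with DESeq2 (0.996, 0.0885), without glutamine-only library A (0.96, 0.0807), without glutamine-only library B (1.03, 0.0569), without glutamine-only library C (0.90, 0.103) and without full library C (0.72, 0.176). RIOX1 and RIOX2, ribosomal oxygenases, ranged over the libraries from 2.41 to 18.2 and 14.5 to 28.98, and neither was called against full medium.

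The 3 TET genes, whose products oxidise 5-methylcytosine in DNA, went in different directions. TET3 (chr2:73983631-74135498) had 48.2, 37.4 and 45.8 in deficient, 27.7, 18.9 and 18.8 in glucose-only, 10.8, 12.5 and 18.6 in glutamine-only and 15.9, 11.3 and 9.17 in full medium. It rose in deficient against full medium by 1.80 ± 0.27 (adjusted p = 1.9e-06), and all 6 libraries without glutamine lay above all 6 with it, by a narrow margin of 18.8 to 18.6. Its rise in glucose-only against full medium, 0.81 ± 0.27, was lost with equal library totals (0.61, 0.105), in a fit of those media alone (0.81, 0.0551), with DESeq2 (0.83, 0.109), without glucose-only library A (0.63, 0.139), without full library B (0.78, 0.0713) and without full library C (0.64, 0.126). TET1 had 14.5, 19.7 and 11.9 in full, 5.41, 5.78 and 10.3 in glutamine-only, 8.43, 4.19 and 4.703 in glucose-only and 2.603, 2.41 and 4.66 in deficient medium. All full libraries lay above all libraries of the other media. TET1 was tested only because its full libraries passed the filter: of the others only glutamine-only library C reached 10. This separation therefore rests on the values that admitted the gene. The TET1 calls against full medium were kept when testing without the filter. TET1 summed to 56 reads in full and 10 in deficient medium, a ratio of 4.41 (95% exact interval 2.23 to 9.69) for counting error alone, and the fitted difference was -1.97 ± 0.40 (adjusted p = 0.000179) with a pseudocount of 1 and -1.05 with one of 8, called with both. Glucose-only lay below full medium with a log2 difference of -1.30 ± 0.40 for TET1 (-0.76 with a pseudocount of 8), lost with DESeq2 (-1.41, 0.0557), without glucose-only library B (-1.13, 0.0767), without glucose-only library C (-1.20, 0.0613), without full library A (-1.33, 0.0523) and without full library B (-1.12, 0.101). TET2 had 33.7, 25.4 and 44.9 in full and 19.5, 30.2 and 24.8 in deficient medium. It was not called between them with the deposited scaling, at -0.45 (95% interval -0.89 to -0.01, adjusted p = 0.0805). With equal library totals 2 of the 3 TET genes, TET1 and TET2, were called lower in deficient than in full medium and TET3 higher.

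Among the AlkB-family members, several of which oxidise methyl groups on nucleic acids, ALKBH5 and FTO act on N6-methyladenosine in RNA and ALKBH2 repairs alkylated DNA. ALKBH5 had 85.96, 78.96 and 69.7 in full, 78.5, 68.4 and 76.4 in glutamine-only, 54.2, 42.96 and 70.5 in glucose-only and 48.2, 44.7 and 38.8 in deficient medium. All deficient libraries were under all full ones, a difference of -0.82 ± 0.16 (adjusted p = 9.02e-05). In glucose-only against full medium the libraries overlapped, and the difference of -0.50 ± 0.16 was lost without the filter (-0.50, 0.0662), with quantile normalization (-0.39, 0.0873), with DESeq2 (-0.48, 0.128), without glucose-only library A (-0.49, 0.0562), without glucose-only library B (-0.33, 0.169), without full library A (-0.43, 0.102) and without full library B (-0.49, 0.0629). ALKBH2 rose in deficient against full medium by 1.68 ± 0.36 (adjusted p = 0.000333), with 27.3, 25.4 and 27.2 in deficient and 6.61, 6.58 and 10.1 in full medium. FTO had 34.9, 33.5 and 25.9 in glucose-only and 20.8, 18.1 and 16.3 in deficient medium, higher in the former by 0.74 ± 0.23, lost without glucose-only library A (0.66, 0.0512). FTO had 23.8, 27.3 and 16.5 in full and 20.7, 20.2 and 22.4 in glutamine-only medium. It was not called against full in any medium with the deposited scaling. With equal library totals 4 of the 6 tested AlkB-family members were lower and 1 higher in deficient than in full medium. Their median was then -0.73 against -0.37 over all tested genes. ALKBH8, which modifies transfer RNA wobble uridines, was higher in glucose-only than in deficient medium by 1.02 ± 0.31 (adjusted p = 0.00854).

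Counts over the 36 tested members are given here beside the shares over all tested genes. In deficient against full medium 19 members were called, 52.8% of those tested, against 51.8% of all genes: 11 were higher (background 26.3%) and 8 lower (background 25.5%). In glutamine-only against full medium 5 were called, 13.9% against 22.5%, 3 higher (background 10.8%) and 2 lower (background 11.6%). This count fell to 1 without glutamine-only library A, to 3 without glutamine-only library B and to 3 without full library C. The comparisons of glucose-only and of glutamine-only with deficient medium called 18 and 19 members, 50% and 52.8%, against 43.2% and 41.5%. The 18 were 5 higher (background 20.1%) and 13 lower (background 23.2%) in glucose-only medium, and the 19 were 9 higher (background 19.9%) and 10 lower (background 21.6%) in glutamine-only medium. In glucose-only against full medium 11 members were called, 30.6% against 22.9%, of which 10 were lower (27.8% against a background of 13.5%) and 1 higher (background 9.44%). DESeq2 on the recovered reads called 7 members there, all lower. The comparisons with full medium share its 3 libraries, and those of glucose-only medium share that medium's.

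The direct comparison of the single-nutrient media went 1 way among the called members. All 8 called members, 22.2% of the 36, were lower in glucose-only than in glutamine-only medium, against 8.26% of all genes lower, 5.05% higher and 13.3% in either direction. They were EGLN3, P4HA1, P4HA2, PLOD1, JMJD6, PLOD2, KDM3A and ASPH. For no member was glucose-only medium called higher with limma, edgeR or DESeq2. An unadjusted limma p under 0.05 in either direction was reached by 18 members, and the matching share of all tested genes was not counted. The median difference over the 36 members was -0.37 against 0.00 over all tested genes.

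**Figure D2:**
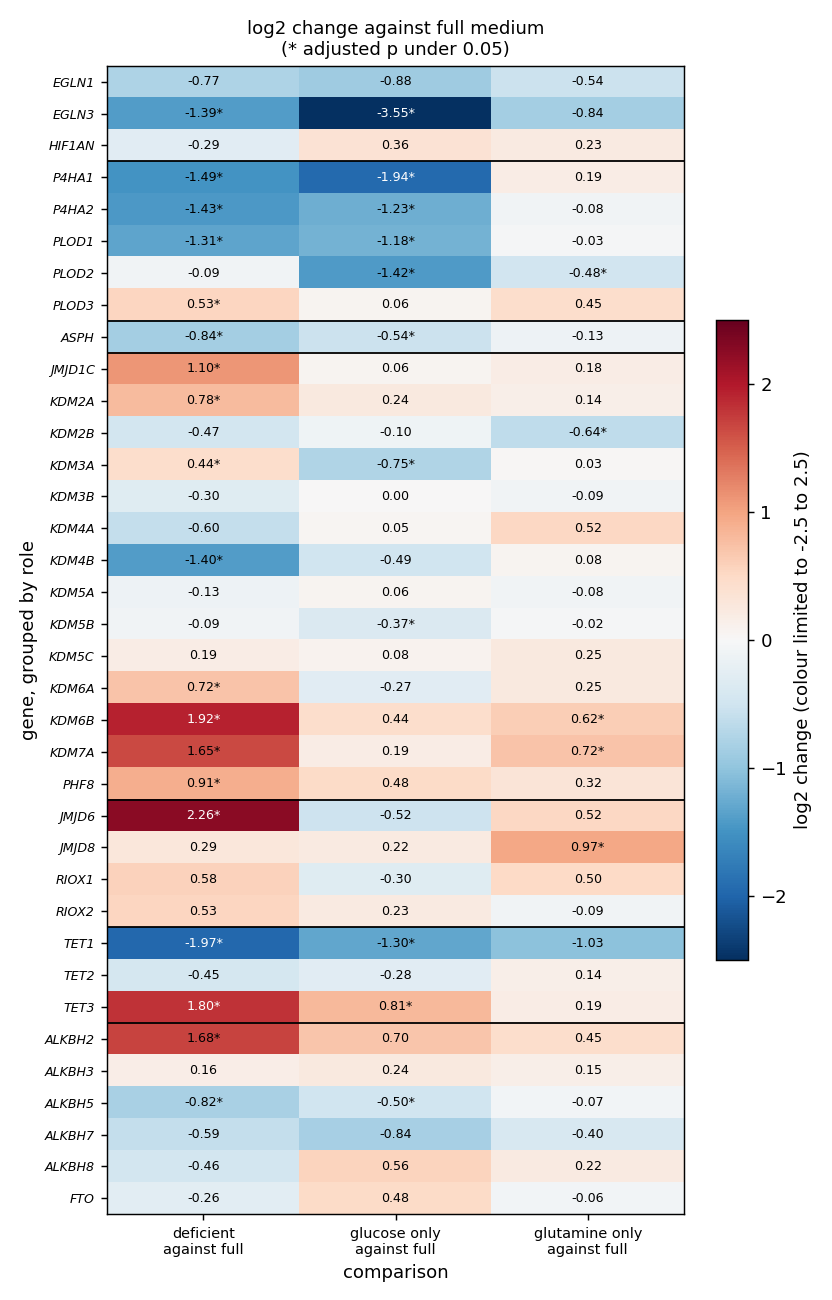
Log2 difference from full medium (colour and printed value) of the tested members in deficient, glucose-only and glutamine-only medium, with asterisks for adjusted p under 0.05. The collagen hydroxylases P4HA1, P4HA2 and PLOD1 are lower in both media without glutamine and near 0 in glutamine-only medium. JMJD6, KDM6B, TET3, ALKBH2 and KDM7A have the largest rises in deficient medium.

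Scaling shifted the split of directions but reversed no called member. The shares of all tested genes called with equal library totals are not given here, so the member counts below have no background beside them. The percentages below describe only the direction of the genes called. With equal library totals the members called in deficient against full medium were 7 higher and 20 lower, and of all called genes 23.6% were higher against 50.8% with the deposited scaling. In glucose-only against full medium the same scaling gave 0 members higher and 14 lower, and 15.5% of called genes higher against 41.2%. In glutamine-only against full medium it gave 0 higher and 3 lower, and 31.6% against 48.2%. In glucose-only against glutamine-only medium it gave 0 higher and 10 lower, and 21.3% against 37.9%. Against deficient medium the members called were 9 higher and 10 lower for glucose-only (63.5% of called genes higher against 46.4%) and 13 higher and 7 lower for glutamine-only (75.0% against 48.0%). The calls for P4HA1, P4HA2, PLOD1 and ASPH against full medium, and those for EGLN3, JMJD6 and JMJD1C, held under each alternative that gave a value.

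Grouped by the presence of glutamine, 5 of the 36 members (13.9%, against 3.67% of all tested genes) had all 6 libraries with it above all 6 without: ASPH, KDM4B, P4HA1, P4HA2 and PLOD1. TET3 was the 1 member with the opposite order, 2.78% against 1.88%. Grouped by glucose, JMJD6 and KDM7A were lower in all 6 libraries with it, 5.56% against 3.97%.

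The design also allows a test of whether the difference made by glutamine was the same with and without glucose. This interaction is the difference of full from glucose-only medium minus the difference of glutamine-only from deficient medium. It was called for 10 of 36 members, 27.8% against 26.5% of all genes, 6 positive (background 15.5%) and 4 negative (background 11%). The positive ones were EGLN3 at 3.00 ± 0.50 (adjusted p = 4.11e-05), JMJD6 at 2.25 ± 0.32 (adjusted p = 4.11e-06), PLOD2 at 1.82 ± 0.19 (adjusted p = 2.19e-08) and KDM3A at 1.16 ± 0.17 (adjusted p = 5.76e-06), followed by KDM6B and JMJD1C at 0.86 ± 0.26 and 0.85 ± 0.16. For PLOD2 glucose-only lay below full medium (-1.42 ± 0.13) while glutamine-only lay below deficient medium (-0.39 ± 0.13). For KDM3A the same differences were -0.75 ± 0.12 and -0.41 ± 0.12. For JMJD6 they were -0.52 ± 0.22 (adjusted p = 0.0987) and -1.74 ± 0.22 (adjusted p = 4.61e-07). HIF1AN, at -0.87 ± 0.22 (adjusted p = 0.00314), and KDM4B, KDM4A and ALKBH8, at -0.98 ± 0.31, -1.17 ± 0.42 and -1.23 ± 0.43, were negative. The interaction was not called for P4HA1, at 0.25 (95% interval -0.13 to 0.64, adjusted p = 0.345), for PLOD1, at -0.10 (95% interval -0.54 to 0.33, adjusted p = 0.762), for P4HA2, at -0.13 (95% interval -0.82 to 0.57, adjusted p = 0.821), or for ASPH, at -0.18 (95% interval -0.43 to 0.08, adjusted p = 0.324). KDM4B lost its interaction call with DESeq2 (-1.10, 0.0557), without deficient library C (-0.79, 0.0578) and without glutamine-only library A (-0.79, 0.0776), and KDM6B with quantile normalization (0.70, 0.0504) and with DESeq2 (0.81, 0.132). The call for KDM4A was lost with quantile normalization (-1.08, 0.0567), with DESeq2 (-1.33, 0.0627), without deficient library B (-1.06, 0.0713), without deficient library C (-0.98, 0.0987), without glucose-only library C (-0.89, 0.132), without glutamine-only library A (-1.13, 0.0777), without glutamine-only library C (-1.10, 0.0811) and without full library A (-1.03, 0.0958). The call for ALKBH8 was lost with quantile normalization (-1.10, 0.0602), with DESeq2 (-1.44, 0.0645), without deficient library C (-1.10, 0.0792), without glucose-only library A (-1.12, 0.0823), without glucose-only library B (-1.15, 0.0771), without glutamine-only library A (-1.25, 0.054), without glutamine-only library C (-0.996, 0.115), without full library A (-1.15, 0.0762) and without full library B (-1.11, 0.0817). The EGLN3 value was 1.57 with a pseudocount of 8. The intervals for P4HA1, PLOD1, P4HA2 and ASPH bound how far the effect of glutamine on these 4 genes could differ between the media with and without glucose.

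**Figure D3:**
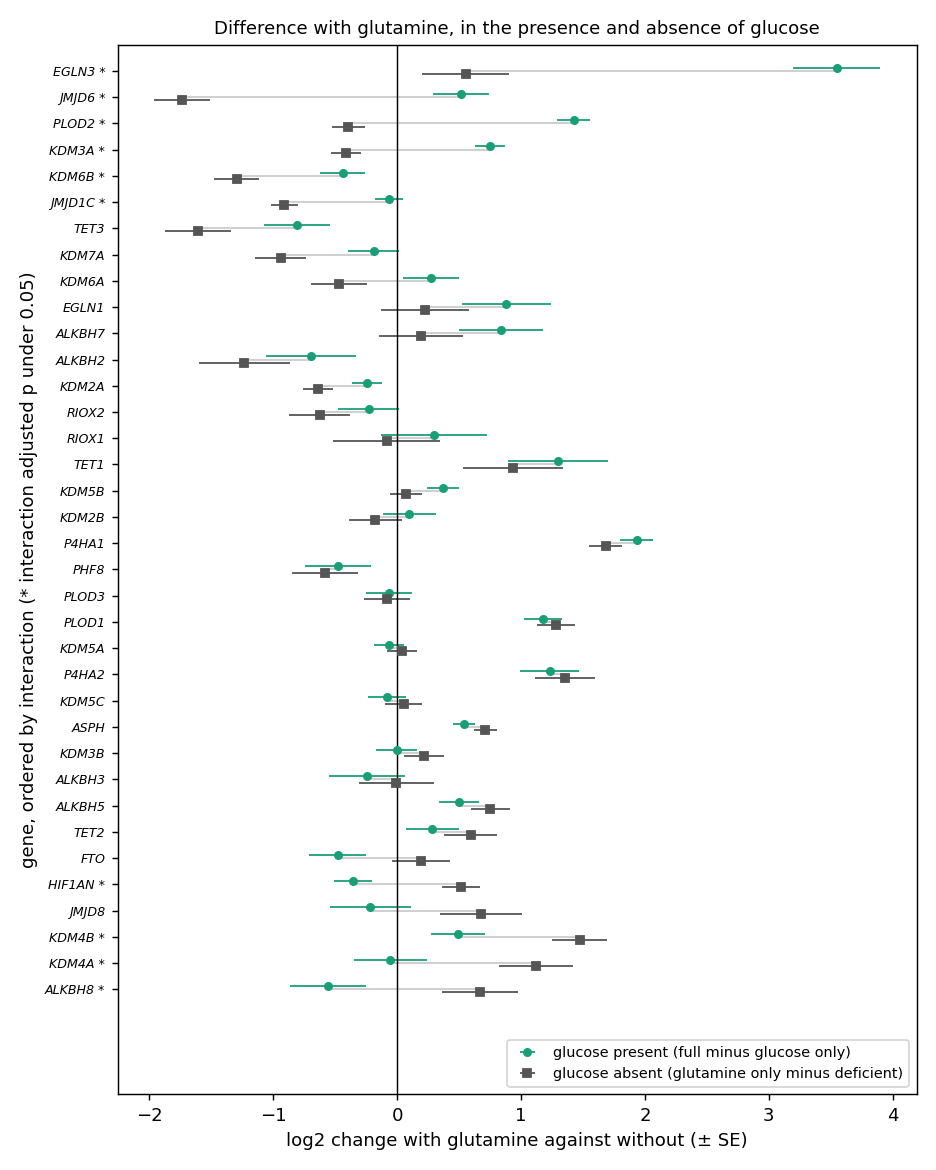
Log2 difference made by glutamine (horizontal axis, ± SE) for the 36 tested members, with glucose (circles, full minus glucose-only) and without it (squares, glutamine-only minus deficient), ordered by interaction. P4HA1, P4HA2, PLOD1 and ASPH have both points to the right of 0 at similar values, while EGLN3, PLOD2, KDM3A and JMJD6 have points far apart.

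Genes around these enzymes were taken from lists by function. Of 9 members in the textbook set of HIF-inducible dioxygenases 8 were tested: 6 were lower and none higher in glucose-only than in full medium (median -1.20), 1 was lower in glutamine-only (median -0.05), and 5 were lower and 1 higher in deficient medium (median -1.35). Of 14 tested HIF target genes outside the family 13 were lower and 1 higher in glucose-only against full medium (median -1.29), with the mitophagy receptor BNIP3 at -2.83 ± 0.12, the glycolytic regulator PFKFB4 at -2.54 ± 0.25 and the glycolytic enzyme PGK1 at -2.49 ± 0.11. In glucose-only against glutamine-only medium 12 of these 14 were lower and none higher (median -1.06), led by the hypoxia-induced NDRG1 at -2.26 ± 0.12. They also differed in glutamine-only against full medium, where 8 were lower and 2 higher (median -0.37). In deficient against full medium 10 of the 14 were lower and 1 higher (median -1.40). The medians over all genes lay between -0.03 and 0.01 in these comparisons. Of all tested genes 13.5% were lower and 9.44% higher in glucose-only against full medium, 11.6% and 10.8% in glutamine-only against full, 25.5% and 26.3% in deficient against full, and 8.26% and 5.05% in glucose-only against glutamine-only medium. Of 9 HIF subunit and VHL complex genes 3 were higher in deficient than in full medium, among them EPAS1, the HIF-2 alpha subunit, at 1.17 ± 0.21, and 2 lower.

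P4HB, the protein disulfide isomerase that forms the beta subunit of prolyl 4-hydroxylase, did not follow P4HA1 in every comparison. Its normalized counts were 262 ± 28.9 in deficient, 282 ± 20.4 in glutamine-only, 184 ± 8.81 in full and 158 ± 17.4 in glucose-only medium (mean ± SD, n = 3). With the deposited scaling P4HB was higher in deficient than in full medium by 0.51 ± 0.11, where P4HA1 was lower. Equal library totals moved the median of all genes by -0.39 in that comparison, and P4HB was not checked with them. Of 6 tested partners and collagen-folding genes 3 were higher and 1 lower in deficient against full medium (26.3% and 25.5% of all tested genes), with the collagen chaperone SERPINH1 at 2.49 ± 0.11 and the collagen galactosyltransferase COLGALT2 at -2.34 ± 0.19. In glucose-only against full medium 1 of the 6, COLGALT2, was lower and none higher (13.5% and 9.44% of all tested genes). In glucose-only against glutamine-only medium 5 of the 6 were lower and none higher (median -0.75), against 8.26% and 5.05% of all tested genes. Both P4HB and P4HA1 had lower means in glucose-only than in glutamine-only medium.

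The lists for cofactor supply and for opposing enzymes are set beside all tested genes, of which 26.3% were higher and 25.5% lower in deficient against full medium, 9.44% and 13.5% in glucose-only, and 10.8% and 11.6% in glutamine-only. Of 15 tested genes of 2-oxoglutarate supply and use 4 were higher and 4 lower in deficient against full medium, 3 and 2 in glucose-only, and 5 and 1 in glutamine-only. IDH1, which makes 2-oxoglutarate from isocitrate in the cytosol, was at -1.33 ± 0.23 in deficient and 1.18 ± 0.23 in glutamine-only against full medium. PSAT1, a serine-synthesis transaminase that yields 2-oxoglutarate, was at 2.59 ± 0.15 in glucose-only and 2.47 ± 0.15 in glutamine-only. Of 10 genes for enzymes of succinate, fumarate and 2-hydroxyglutarate 3 were lower in glucose-only and 1 in deficient against full medium, none in glutamine-only, and none was higher. Of 10 genes for iron and ascorbate handling 3 were higher and 4 lower in deficient medium, with the haem oxygenase HMOX1 at a normalized count of 273 ± 33.7 in deficient and 2.42 ± 1.38 in full medium (mean ± SD, n = 3). In log2 difference the ferritin chain FTH1 was at 2.38 ± 0.15 and the ascorbate transporter SLC23A2 at -1.31 ± 0.27. Of 17 histone methyltransferase genes 4 were higher and 3 lower in deficient against full medium, and 1 was higher and 4 lower in glutamine-only, where the H3K27 methyltransferase EZH2 was at -0.77 ± 0.17 and its partner SUZ12 at -0.80 ± 0.13. Of 10 DNA and RNA methyltransferase genes 3 were higher and 2 lower in deficient medium, 2 were lower in glutamine-only and 1 in glucose-only against full. Of 8 tested dioxygenases outside the 48, 2 were higher in deficient medium and 1 in glucose-only, none lower.

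The 12 untested members were ALKBH1, ALKBH4, ALKBH6, EGLN2, KDM4C, KDM4D, KDM4E, KDM4F, P4HA3, JMJD4, JMJD7 and JMJD7-PLA2G4B. KDM4E and KDM4F had no read in any library. JMJD7 shares 80.1% of its exonic bases with JMJD7-PLA2G4B, so their few reads cannot be assigned between them. Of the 36 tested members 29 were called in at least 1 of the 6 comparisons of media. The matching share of all tested genes was not counted, and 51.8% of them were called in deficient against full medium alone. The 7 members called in none with the deposited scaling were ALKBH3, ALKBH7, EGLN1, KDM3B, KDM5A, KDM5C and RIOX1.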

How the data were processed

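RNA of 12 MDA-MB-231 libraries, 3 for each of 4 media, was measured by ribosomal-depleted, stranded sequencing, all with 1 batch label. The deposited values are gene-level signal: read counts that the authors divided by 1 size factor per library. Per the submitters' processing notes FastQC, HISAT2, Subread and DESeq2 were used with GRCh38.p14; versions, annotation release and strand setting are not given in the sources used here. In every library 100% of values were whole multiples of 1 read within 0.01 reads, so read counts could be recovered from the deposited signal. Genes with a value of at least 10 in at least 3 libraries (9270 of 63187) were tested with limma 3.58.1 (trend) in R 4.3.3 on log2(value + 1), in 1 model with a mean per medium, and Benjamini-Hochberg adjustment over all of them.

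Alternatives were pseudocounts of 0.5 or 8, testing without the filter or only at a mean value of 50 and above, equal library totals, quantile normalization, the replicate letter as a block, each comparison's media alone, edgeR 4.0.16 and DESeq2 1.42.0 on recovered reads, and each library left out. The fitting code was checked on simulated data. Positions and promoters come from RefSeq on GRCh38.p14, exon lengths and overlaps from GENCODE release 29, which may differ from the annotation behind the file. Named members are, per comparison, up to 8 called members with the largest differences and a mean of at least 20, plus anchors of each class. Pathway lists give up to 3 called genes per comparison. The members and lists were chosen with earlier results of these data known. Intervals on read ratios cover counting error only.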

Additional observations from a re-analysis of the deposited data

Results flagged for a closer look

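For 10 members the difference made by glutamine with glucose present differed from that without glucose, by the interaction term of the limma model over all 12 libraries (adjusted p under 0.05 over 9270 genes, where 26.5% of all genes passed). The interaction was positive for EGLN3 (3.00), JMJD6 (2.25), PLOD2 (1.82), KDM3A (1.16), KDM6B (0.86) and JMJD1C (0.85), in log2 units. It was negative for HIF1AN (-0.87), KDM4B (-0.98), KDM4A (-1.17) and ALKBH8 (-1.23). EGLN3 rests on 4 reads in the glucose-only libraries, and its interaction was 1.57 with a pseudocount of 8. KDM4B, KDM6B, KDM4A and ALKBH8 lost their calls under the alternatives named with them above. The causes were not tested.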

How the results depend on the processing

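Of the 90 calls of members over the 6 comparisons and the interaction, 65 held in every alternative that gave a value and 25 were lost in at least 1. No call changed sign; signs of differences not called in either fit were not compared. Of the 162 member results not called, 41 were called in at least 1 alternative. Lost calls numbered 19 with DESeq2, 14 with equal totals, 8 without the filter, 8 with quantile normalization, 2 with edgeR and 2 in fits of the compared media alone, and 27 were gained with equal totals. A mean of at least 50 left 13 members and 2756 genes, fewer by construction. It called 7 members in deficient against full, 7 in glucose-only against full, 1 in glutamine-only against full, 7 in glucose-only and 9 in glutamine-only against deficient medium and 5 in the interaction. The genes it called were 1853, 1157, 1138, 1643, 1612 and 1249 in that order, and 801 in glucose-only against glutamine-only medium. DESeq2 called 7 members and 1255 genes in glucose-only against full, 1 member in glutamine-only against full, 6 members and 1495 genes in the interaction, and 604 genes in glucose-only against glutamine-only medium. Members called in glutamine-only against full medium were 3 without the filter and 3 with equal totals, and ranged from 1 to 6 when single libraries were left out. Where libraries were left out, other counts stayed within 1.5 times the reported ones. The causes were not tested. With the replicate block 19, 11, 5, 8, 18, 19 and 11 members were called in deficient, glucose-only and glutamine-only against full, glucose-only against glutamine-only, glucose-only and glutamine-only against deficient medium and the interaction, with 4863, 2166, 2135, 1276, 4036, 3874 and 2492 genes. The replicate block ended no call. Same-letter libraries correlated only between -0.03 and 0.07 after removing media means, and the letters were not taken as pairs in the main model. The mean correlation was 0.015 for the same letter and -0.0075 for other letters. Of 12 libraries 8 correlated best with their own letter, and an effect shared by a letter was not tested beyond the replicate block. Depth limits members of few reads, such as EGLN1, EGLN2 and TET1.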

Other observations

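The tested members reached their highest mean in deficient medium for 13 of 36, in full medium for 11, and in glucose-only and glutamine-only medium for 6 each. The lowest mean fell in deficient medium for 13, in full for 11, in glucose-only for 10 and in glutamine-only for 2. Promoter windows with GAANNTTC, the letters of a heat shock element pair, made up 4 of the 58 windows listed for members (6.9%; those of PHF8, KDM6B and ALKBH8) against 5.78% of all windows. TGATGNAA, the amino acid response letters, was in 0 of the 58 windows against 3.14% of all. That speaks only of these letters in these windows.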
